A study of Mus musculus with 4 samples.

Results

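The complement component genes described here were 8 genes named by symbol, namely C1qa, C1qb, C1qc, C1ra, C1s1, C3, C4b and Cfb, of 19465 genes in the probe set of the deposited matrices. They were chosen by symbol, with earlier results of these data known, and 7 of the 8 were found. C1s1 was not matched and was not analysed here. The 7 genes were read in 4 Visium sections, 1 primary tumour and 1 lung from each of Mouse_627 and Mouse_628, so both groups held 2 sections of the same 2 animals. Each animal was a BALB/c mouse injected in the mammary fat pad at 8 weeks of age with 100000 cells of 4T1, a mouse mammary carcinoma line that spreads spontaneously to the lung, and tumours and lungs were taken 28 days later. All 4 sections therefore came from tumour-bearing animals, and the lung sections hold lung tissue together with whatever metastatic tissue was cut. Sections were 4 µm thick and formalin-fixed, and transcripts were captured by mouse probe pairs and counted as unique molecular identifiers (UMIs) in spots, so that 1 spot is a patch of tissue and may mix cell types.

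Complement is a protein cascade of innate immunity. In the classical pathway the recognition molecule C1q, assembled from the A, B and C chains encoded by C1qa, C1qb and C1qc, activates the proteases C1r and C1s, which cleave C4 and C2. All pathways converge on the cleavage of C3, and factor B, encoded by Cfb, supplies the protease of the alternative pathway that amplifies it. C1q is made mainly by macrophages and dendritic cells, whereas C3, C4 and the C1 proteases are made by the liver and locally by epithelial cells and fibroblasts.

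In the GRCm38 (mm10) annotation, the 3 C1q genes lay side by side on the minus strand of chromosome 4. C1qb was at chr4:136880129-136886187, C1qc at chr4:136889804-136893065 and C1qa at chr4:136895917-136898803, with 3616 and 2851 bases between neighbours. C4b at chr17:34728380-34743882 and Cfb at chr17:34856374-34862518 were 112491 bases apart on the minus strand, and C3 was at chr17:57203970-57228136 on the minus strand. C1ra was at chr6:124512405-124523443 on the plus strand. All 7 were annotated as protein-coding genes. RefSeq promoters on GRCm38.p6 were matched for 4 of the 7 genes (C1qb, C1qc, C1ra and C3). The RefSeq starts of C1qc and C1ra lie inside the genes as positioned above, so their windows overlap the annotated genes and are not described. The 250 bases before the start of C1qb (chr4:136886201-136886450) and C3 (chr17:57228137-57228386), both on the minus strand and printed 5′ to 3′ along the gene, are shown because the C1q genes and C3 had different spatial patterns below. Capitals mark matches, on either strand, to GAGGAA, a core bound by ETS factors such as PU.1, and to TTNNGNAA, a loose pattern of C/EBP factor sites.
C1qb: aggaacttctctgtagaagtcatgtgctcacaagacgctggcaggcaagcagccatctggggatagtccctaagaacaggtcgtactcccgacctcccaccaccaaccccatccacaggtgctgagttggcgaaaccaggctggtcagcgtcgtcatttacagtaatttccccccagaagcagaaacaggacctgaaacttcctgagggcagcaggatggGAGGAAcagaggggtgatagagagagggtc
C3: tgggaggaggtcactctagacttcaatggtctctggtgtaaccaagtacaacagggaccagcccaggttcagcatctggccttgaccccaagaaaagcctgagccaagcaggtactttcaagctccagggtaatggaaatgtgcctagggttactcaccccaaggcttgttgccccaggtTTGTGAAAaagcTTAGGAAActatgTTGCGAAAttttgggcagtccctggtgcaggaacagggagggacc

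GAGGAA matched once in the C1qb window, with its first base 30 bases before the start. The same letters were found in 23.4% of 32536 promoter windows of this length. TTNNGNAA matched at 3 places in the C3 window (70, 58 and 45 bases before the start). At least 1 such match was held by 36.8% of windows and 3 or more by 2.62%. These matches describe letters in the windows and not sites of binding.

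After spots with at most 200 genes were left out, 9339 of 9445 spots under tissue and 65785300 UMIs remained, with 10890154 to 30240176 UMIs per section and a median of 1820 to 9174.5 UMIs per spot. The tissue labels held against their markers, since summed alveolar markers were 14543 and 8246 CPM (UMIs of the genes over all UMIs of the section, scaled to 1000000) in the lungs and 78.3 and 115.6 CPM in the primary tumours. Summed 4T1-associated tumour markers were 3825 and 4669 CPM in the primary tumours, 90.7 CPM in the lung of Mouse_627 and 1044 CPM in the lung of Mouse_628. The primary tumour of Mouse_628 stood apart in background. Its 1178 olfactory and vomeronasal receptor genes, which these tissues should not express, took 0.926% of UMIs, against 0.0183% to 0.0868% in the other sections. The 95th percentile of these receptor genes was 19.0 CPM in that section, and C1ra at 13.2 CPM and Cfb at 16.5 CPM lay below it. These 2 values were therefore read as background. The other members were above that percentile in every section, as were C1ra and Cfb in the other 3 sections.

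The 3 C1q genes did not separate the tissues, and differed several-fold between the animals within a tissue. C1qa was at 816 CPM in the primary tumour of Mouse_627, 147 CPM in that of Mouse_628, 111 CPM in the lung of Mouse_627 and 380 CPM in the lung of Mouse_628. The primary tumour of Mouse_627 was the highest and the lung of the same mouse the lowest, and the tissues overlapped. C1qb was at 338, 51.1, 41.2 and 128 CPM in the same order. C1qc was at 545, 89.9, 59.5 and 212 CPM. All 3 chains thus ranked the sections alike. C1qa was 5.54 times higher in the primary tumour of Mouse_627 than in that of Mouse_628, and 3.43 times higher in the lung of Mouse_628 than in that of Mouse_627. The chains kept similar proportions, with C1qa taking 48.0% to 52.8% of all C1q UMIs, C1qb 17.7% to 19.9% and C1qc 28.1% to 32.1% across the 4 sections.

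C3, the central component, had a different order. It was at 98.1 and 114 CPM in the primary tumours of Mouse_627 and Mouse_628 and at 538 and 338 CPM in the lungs. Both lungs were above both tumours without overlap. C3 was also widespread in the lung, with at least 1 UMI in 90.7% and 89.7% of lung spots and 32.6% and 28.6% of tumour spots. When each spot was thinned to 1000 UMIs, leaving out shallower spots, the shares were 39.0% and 31.0% in the lungs and 8.85% and 11.3% in the tumours.

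C4b, which encodes complement C4, was at 101 and 50.2 CPM in the primary tumours and 112 and 104 CPM in the lungs. The lungs were close to the primary tumour of Mouse_627, and only the tumour of Mouse_628 was lower. Cfb was at 41.2 and 16.5 CPM in the tumours and 22.3 and 28.2 CPM in the lungs, so the tissues overlapped. C1ra, which encodes a C1r protease, was at 30.6 and 13.2 CPM in the tumours and 20.4 and 17.6 CPM in the lungs, and these overlapped too. The reads behind these values ranged from 144 UMIs for C1ra in the primary tumour of Mouse_628 to 11504 UMIs for C1qa in the lung of Mouse_628.

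**Figure D1:**
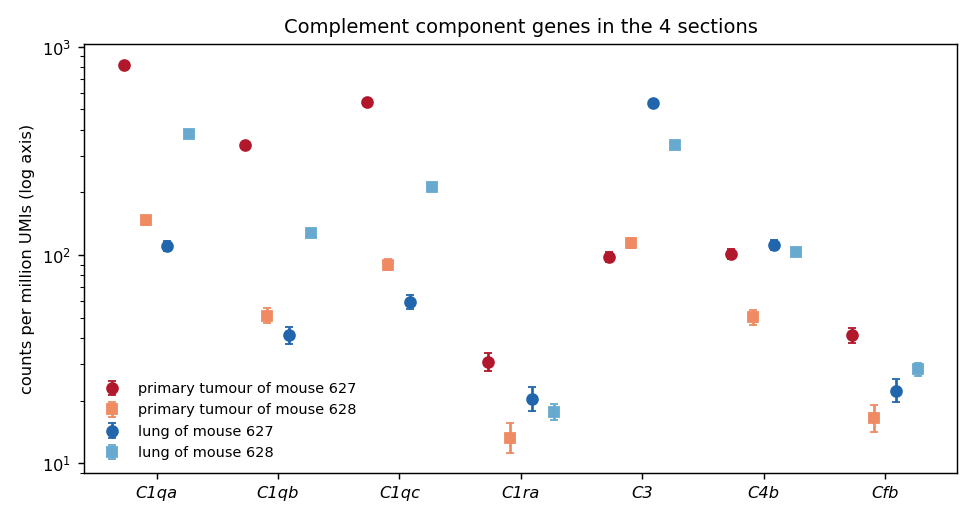
CPM (log axis) of the 7 complement component genes in each section, with exact Poisson 95% intervals that cover counting error only. C3 separates lungs (538 and 338 CPM) from primary tumours (98.1 and 114 CPM), whereas the C1q genes are highest in the primary tumour of Mouse_627 and lowest in the lung of the same mouse.

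Of the 7 members, 1 passed the test between lung and primary tumour on summed UMIs (edgeR quasi-likelihood test over 15267 genes, 2 sections against 2, Benjamini-Hochberg adjusted p under 0.05), where 7.46% of all genes tested were called. C3 rose in the lung by 2.38 on the log2 scale (SE 0.46, edgeR adjusted p = 0.0163). It was called with mouse as a block as well, where the count of called genes went from 1139 to 1817. It was not called when total UMIs alone set the scale, without TMM normalization, which moved the median log2 difference of all genes from −0.0046 to −0.31 (C3 at 2.03, edgeR adjusted p = 0.0521), nor without the primary tumour of Mouse_628 (C3 at 2.35, edgeR adjusted p = 0.0637). For C4b the log2 difference was 0.80 (SE 0.43, edgeR adjusted p = 0.303). For C1qa it was −0.78 (95% interval −2.50 to 0.93, edgeR adjusted p = 0.605), and leaving out the primary tumour of Mouse_627 turned it to 1.26. Without that section C1qb and C1qc turned to 1.25 and 1.11, and C4b was at 1.72. C1qb was at −1.88 without the primary tumour of Mouse_628, and C1qb and C1qc were at −1.70 and −1.87 without the lung of Mouse_628. For these C1q and C4b values only the sizes are given, since 1 section stayed in a tissue. C1ra and Cfb differed by 0.08 and 0.07, with intervals of −1.05 to 1.22 and −1.02 to 1.16. Both values include the primary tumour of Mouse_628, where these genes were read as background, so no exact difference is read. In such summed sections, fewer cells of a type and less RNA per cell cannot be told apart.

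Of 42 other complement genes considered, 36 were tested between the tissues, and 4 rose in the lung and 0 fell, where 6.31% of all genes tested were called as higher and 1.15% as lower. The terminal component gene C7 was at 191 and 164 CPM in the lungs of Mouse_627 and Mouse_628 and at 1.03 and 8.36 CPM in the tumours. Hc, which encodes C5, was at 103 and 63.8 CPM in the lungs and 1.70 and 13.7 CPM in the tumours. These tumour values were no higher than the 95th percentile of the receptor genes (1.70 and 19.0 CPM) and were read as background, so no exact fold is given for either gene. The regulator Serping1, encoding the C1 inhibitor, was at 119 and 96.1 CPM in the lungs and 35.5 and 12.9 CPM in the tumours, the last of these also within background. Hc and Serping1 were not called without TMM (edgeR adjusted p = 0.0990 and 0.0796) or with spots of at least 1000 UMIs alone (edgeR adjusted p = 0.0572 and 0.0522), nor was Serping1 without the primary tumour of Mouse_628 (edgeR adjusted p = 0.0813). The C5a receptor gene C5ar1 was at 392 and 218 CPM in the lungs and 73.8 and 63.9 CPM in the tumours, higher in lung by 2.48 on the log2 scale. It was not called without TMM (edgeR adjusted p = 0.0501) or without the primary tumour of Mouse_628 (edgeR adjusted p = 0.0525). C5ar1 is also expressed by neutrophils, and the summed level of 8 neutrophil markers was 78586 and 32229 CPM in the lungs against 2528 and 11107 CPM in the tumours. Its part in the result was not tested. The median log2 difference of the 36 genes was 0.55, beside −0.0046 over all genes tested. Many of the 36, C7 and Hc among them, were within background in the primary tumour of Mouse_628. No size of change is read from this median.

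Spots were next compared within each section by their share of 10 macrophage markers (Cd68, Adgre1, Csf1r and others, none of them a C1q gene), with the spots divided into 3 equal parts by rank and the highest part called rich and the lowest poor. In the primary tumour of Mouse_628, spots with none of the markers were all poor, 1031 of 2372. C1qa went from 421 CPM in poor spots to 1090 CPM in rich spots of the primary tumour of Mouse_627, and from 83.4 to 240 CPM in that of Mouse_628. In the lungs it went from 89.5 to 138 CPM in Mouse_627 and from 330 to 411 CPM in Mouse_628. Rich spots were higher in all 4 sections. C1qb went from 148 to 451 and from 37.3 to 75.5 CPM in the tumours and from 28.7 to 52.0 and from 108 to 140 CPM in the lungs. C1qc was likewise higher in the rich spots of every section.

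Across the 4 sections, with section as a block, 3 of the 7 members were higher in macrophage-rich spots and 0 were lower, where 1.88% of 18931 genes tested were called. C1qa rose by 0.98 on the log2 scale (SE 0.11, edgeR adjusted p = 8.23e-11), C1qb by 0.99 (SE 0.11) and C1qc by 0.92 (SE 0.11). Most of the estimate of spread in this fit came from other genes and not from the 4 sections. The other 4 members were not called. Their log2 differences were 0.07 for C1ra, 0.01 for Cfb, −0.0029 for C4b and −0.10 for C3. The 95% interval was −0.29 to 0.09 for C3. For C4b the sections went opposite ways, at 0.32 and 0.26 in the tumours and −0.07 and −0.39 in the lungs. Poor spots were shallower in the primary tumour of Mouse_627, with a median of 556 UMIs against 2812 in rich spots. With spots of at least 1000 UMIs alone the 3 C1q genes were called as well. Another split set the classes by marker UMIs in a draw of 1000 UMIs per spot, while the counts tested were not thinned. It set spots without a marker UMI in the draw against spots with any, and left out the primary tumour of Mouse_628. None of the members was called in it (32 genes called by edgeR, 848 at an unadjusted p under 0.05). Other marker lists moved with the split into 3 parts. In the primary tumour of Mouse_627 keratinocyte markers went from 76.3 to 295 CPM and neutrophil markers from 3462 to 2344 CPM. T cell markers went from 63.7 to 120 CPM there, and from 109 to 85.6 CPM in the primary tumour of Mouse_628. In the lungs airway markers went from 2339 to 1237 CPM and from 1459 to 546 CPM, and in that of Mouse_628 neutrophil markers went from 37550 to 27969 CPM and cardiac markers from 777 to 263 CPM. Their part in the result was not tested.

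The C1q difference was larger in the primary tumours than in the lungs. The test of the difference itself called C1qa (lung minus tumour −1.07, SE 0.17, edgeR adjusted p = 7.22e-07), C1qb (−0.96, SE 0.19) and C1qc (−0.93, SE 0.18), where 0.386% of genes tested were called. This fit took nearly all of its estimate of spread from the other genes. The split itself differed between tissues, with macrophage markers at 208 and 0 CPM in the poor spots of the tumours and 332 and 372 CPM in those of the lungs. The summed receptor genes went from 2024 to 751 CPM and from 22172 to 15910 CPM between poor and rich spots of the tumours, and from 260 to 237 CPM and from 197 to 188 CPM in the lungs. The part of either list in the result was not tested. For C4b this value was −0.63 (SE 0.19, edgeR adjusted p = 0.138). Without the lung of Mouse_628 none of the members was called, and 2 genes in all passed, 402 being at an unadjusted p under 0.05. Of the 41 other complement genes tested, Itgax (0.93), C3ar1, the C3a receptor gene (0.62), and the lectin pathway protease gene Masp1 (0.43) rose in macrophage-rich spots, and the regulator Cd55 fell by 0.50. Of all genes tested between macrophage-rich and macrophage-poor spots, 0.745% were called as higher and 1.13% as lower. Leaving out a section gave −0.68 to −0.26 for Cd55. In the primary tumour of Mouse_628 Itgax (2.57 CPM) and Cd55 (17.9 CPM) were within background.

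The number of C1q UMIs per macrophage marker UMI was 1.77 and 0.909 in the primary tumours and 0.308 and 0.984 in the lungs. The lung of Mouse_628 lay between the tumours, so the groups overlapped (exact two-sided permutation test, p = 0.667, the smallest this design allows being 0.33). With Cd68 left out of the markers the numbers were 2.51 and 1.32 in the tumours and 0.42 and 1.25 in the lungs, which did not overlap (exact two-sided permutation test, p = 0.33). The macrophage markers themselves summed to 962 and 317 CPM in the tumours and 687 and 732 CPM in the lungs. Thus the lung of Mouse_627 had the lowest C1q level with a macrophage marker level close to that of the lung of Mouse_628. The 3 alveolar macrophage markers that were matched (Marco, Siglecf and Car4) summed to 219 CPM in the lung of Mouse_627 and 98.9 CPM in that of Mouse_628. Endothelial markers were at 1413 and 708 CPM in the same lungs, and the part of either list was not tested.

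The same split by 10 fibroblast markers, such as collagen genes, gave higher C1q in the rich spots of every section. C1qa went from 565 to 892 and from 90.3 to 175 CPM in the primary tumours of Mouse_627 and Mouse_628, and from 57.0 to 195 and from 261 to 480 CPM in the lungs. C4b went from 98.2 to 102 and from 38.4 to 40.4 CPM in the tumours, within counting error, and from 62.2 to 193 and from 74.7 to 141 CPM in the lungs. C3 went from 107 to 106 and from 132 to 100 CPM in the tumours and from 474 to 655 and from 345 to 357 CPM in the lungs.

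In the test over the 4 sections, 4 of the 7 members rose in fibroblast-rich spots and 0 fell, where 2.92% of 18689 genes tested were called. They were C1qa by 1.08 on the log2 scale (SE 0.19, edgeR adjusted p = 0.00276), C1qc by 1.01, C1qb by 0.95 and C4b by 0.74 (SE 0.18, edgeR adjusted p = 0.0259). Cfb at 0.63 (edgeR adjusted p = 0.0587) and C1ra at 0.63 (edgeR adjusted p = 0.118) missed the threshold, and C3 was at 0.05 (95% interval −0.31 to 0.41). C4b was not called without the lung of Mouse_627 (edgeR adjusted p = 0.252) or by DESeq2 (adjusted p = 0.106). Without the primary tumour of Mouse_627 none of the members was called (299 genes in all), nor without that of Mouse_628 (0 genes by edgeR, 2149 at an unadjusted p under 0.05), although C1qa was at 1.19 and 1.01 in these fits. None was called either when the marker share was taken over a spot and its neighbours. The poor spots of the primary tumour of Mouse_627 had a median of 520 UMIs against 4858.5 in its rich spots. Classes were also set by marker UMIs in a draw of 1000 UMIs per spot, which left out the primary tumour of Mouse_628. The counts tested were not thinned. None of the members was called there (82 genes by edgeR, 1749 at an unadjusted p under 0.05). Neutrophil markers moved with the split into 3 parts as well, from 50342 CPM in poor to 17974 CPM in rich spots of the lung of Mouse_628. They were also lower in the rich spots of the other 3 sections. Tumour markers were higher in the rich spots of all 4 sections, from 53.9 to 129 CPM and from 749 to 1260 CPM in the lungs, and cardiac markers went from 99.2 to 570 CPM and from 91.2 to 971 CPM there. Airway markers went from 1009 to 2802 CPM and from 856 to 1117 CPM in the lungs, and keratinocyte markers from 78.4 to 265 CPM in the primary tumour of Mouse_627. The summed receptor genes fell from 3218 to 810 CPM and from 24307 to 9535 CPM in the tumours. The part of these lists in the result was not tested.

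The fibroblast difference of C4b was larger in lung by 0.84 on the log2 scale (SE 0.26, edgeR adjusted p = 0.0759), which missed the threshold. None of the 7 members was called in this test, where 2.57% of genes were. Among the 40 other complement genes tested over all sections, Cfd, encoding factor D (2.52), and Clu, encoding clusterin (0.71), rose in fibroblast-rich spots and Hc fell by 0.84. Leaving out a section gave 0.93 to 4.14 for Cfd, 0.51 to 0.81 for Clu and −1.20 to −0.60 for Hc. Cfd went from 0.855 to 39.1 CPM and from 2.73 to 55.3 CPM in the lungs. Cfd and Hc were within background in both tumours, where their values fell together with the receptor genes, and no change is read there.

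**Figure D2:**
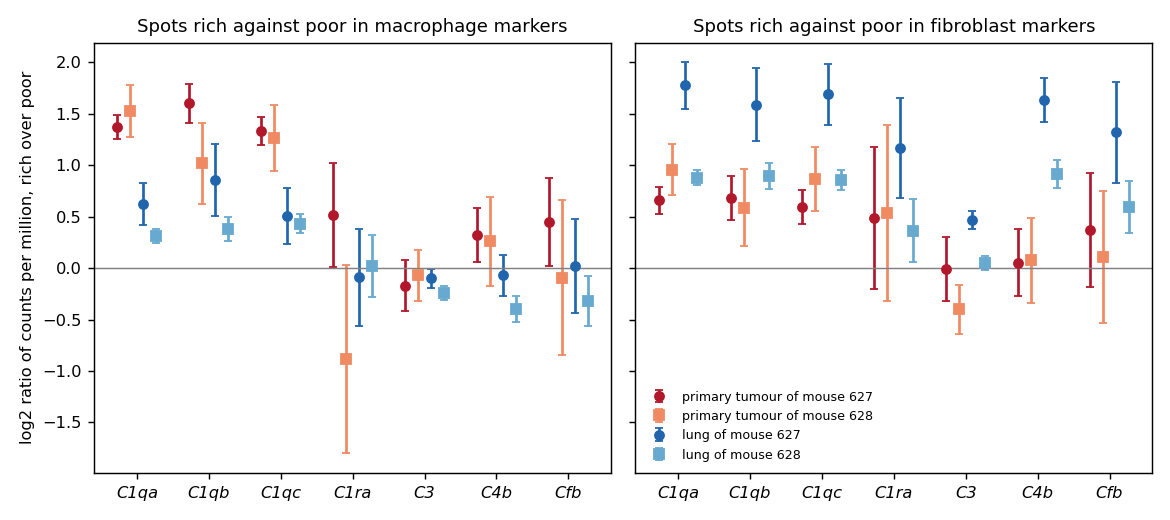
Log2 ratio of CPM between rich and poor spots for macrophage markers and for fibroblast markers, 1 point per gene and section, with 95% bars from counting error only. The 3 C1q genes lie above 0 in every section on both panels, C3 lies between −0.24 and −0.07 for macrophage markers, C4b at 0.32 and 0.26 in the primary tumours and −0.07 and −0.39 in the lungs, and C4b for fibroblast markers lies at 1.64 and 0.92 in the lungs and at 0.05 and 0.07 in the primary tumours.

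Within the lungs, spots rich and poor in 13 alveolar markers were compared. C1q was lower in alveolar-rich spots of both lungs. C1qb went from 61.2 CPM in poor to 34.3 CPM in rich spots in Mouse_627 and from 175 to 75.7 CPM in Mouse_628. C3 went from 590 to 531 CPM in Mouse_627 and from 226 to 460 CPM in Mouse_628, in opposite directions. C4b differed in the same manner, from 133 to 116 CPM and from 86.4 to 127 CPM. With 2 lungs, edgeR called 0 of 12951 genes (0% of those tested, 1203 at an unadjusted p under 0.05, and 23 called by DESeq2), and so none of the members. The fitted log2 differences were −0.93 for C1qb (edgeR adjusted p = 0.503), −0.77 for C1qc, −0.70 for C1qa and 0.54 for C3 (95% interval −0.69 to 1.76). Tumour markers were lower in the alveolar-rich spots of both lungs, at 62.7 CPM in those of Mouse_627 and falling from 1671 to 446 CPM in Mouse_628. Neutrophil markers went from 78558 to 75298 CPM and from 7419 to 54308 CPM, and the part of either list was not tested.

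Spots were finally ranked by 5 tumour markers. In the lung of Mouse_627, 1179 of 1697 spots held none of them, so the spots could not be divided into 3 equal parts, and this comparison used the lung of Mouse_628 alone, with no test. A split of single spots at the percentiles 25 and 75 covered both lungs, with 1179 poor and 425 rich spots in Mouse_627 and 695 of each in Mouse_628. Its edgeR test called 1 of 12932 genes and 0 members (2124 genes at an unadjusted p under 0.05). With the 3 parts of the lung of Mouse_628, C1qa went from 177 CPM in tumour-marker-poor to 506 CPM in tumour-marker-rich spots. C1qb went from 51.3 to 179 CPM and C1qc from 96.5 to 284 CPM. The exact Poisson intervals, which cover counting error only, did not overlap for these genes. C3 was lower, from 487 to 211 CPM, as were C4b, from 138 to 73.9 CPM, and C1ra, from 21.5 to 12.4 CPM. Cfb went from 22.3 to 30.5 CPM. Alveolar markers fell with this split from 13445 to 3932 CPM and airway markers from 1931 to 225 CPM. Neutrophil markers fell from 66250 to 9163 CPM. Poor spots had a median of 7218 UMIs against 14975 in rich spots. The part of these lists and of depth was not tested.

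When the marker share was taken over each spot and its neighbours, both lungs were divided into 3 parts. Summed tumour markers went from 10.6 to 234 CPM between poor and rich spots of Mouse_627 and from 209 to 1705 CPM in Mouse_628. The rich spots of Mouse_627 were thus close to the poor spots of Mouse_628 in tumour markers. Median UMIs per spot were 6779.5 in poor and 5624 in rich spots of Mouse_627, and 7201 and 15100 in Mouse_628. The part of depth was not tested. C1qa then went from 55.0 to 204 CPM in Mouse_627 and from 156 to 509 CPM in Mouse_628, and C1qb and C1qc were higher in the rich spots of both lungs. C3 went from 513 to 553 CPM in Mouse_627 and from 507 to 209 CPM in Mouse_628, again in opposite directions. In the edgeR test 1 of the 7 members was called, where 0.567% of 12708 genes were. C1qb rose by 1.84 on the log2 scale (SE 0.32, edgeR adjusted p = 0.0389). C1qc at 1.59 (edgeR adjusted p = 0.0645) and C1qa at 1.66 (edgeR adjusted p = 0.0807) missed the threshold. The lectin pathway protease gene Masp1 rose by 2.71. Summed macrophage markers differed little, at 668 and 738 CPM in poor and rich spots of Mouse_627 and 671 and 764 CPM in Mouse_628. The alveolar macrophage markers (Marco, Siglecf and Car4), a separate list, were lower in the rich spots of both lungs. They went from 244 to 182 CPM in Mouse_627 and from 202 to 29.9 CPM in Mouse_628. Fibroblast markers were higher in rich spots, at 660 against 1367 CPM and 1324 against 2207 CPM. Neutrophil markers were lower, at 86750 against 64612 CPM and 69409 against 8908 CPM, as were alveolar markers, at 14911 against 13934 CPM and 13554 against 3978 CPM, and airway markers, at 1630 against 1436 CPM and 1969 against 209 CPM. Endothelial markers were lower too, at 1532 against 1272 CPM and 1155 against 380 CPM. Cardiac markers went from 113 to 434 CPM in Mouse_627 and from 643 to 350 CPM in Mouse_628. The part of these lists in the result was not tested.

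**Figure D3:**
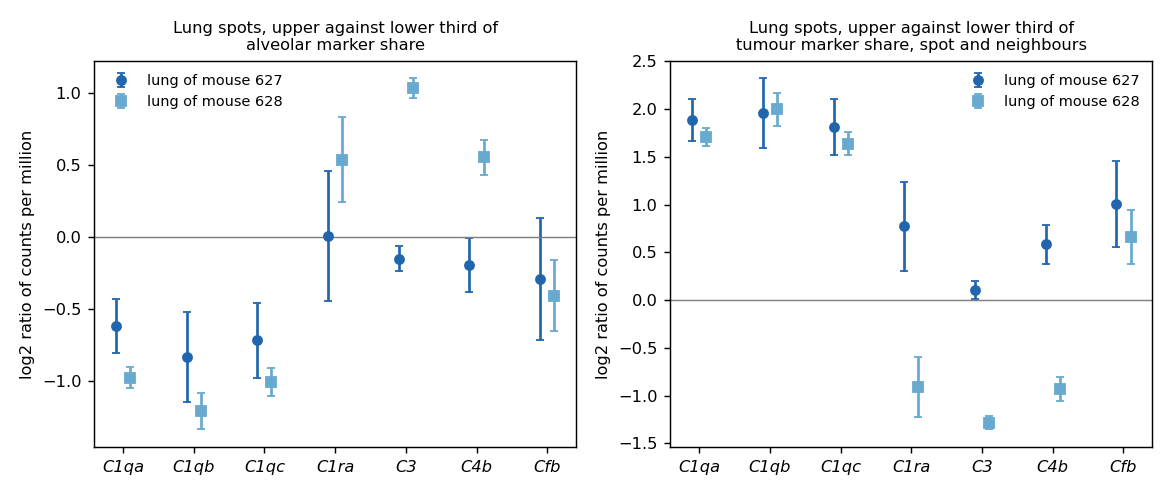
Log2 ratio of CPM between lung spots in the upper and lower share of alveolar markers, and between those in the upper and lower share of tumour markers over a spot and its neighbours, with 95% bars from counting error only. The C1q genes lie below 0 for alveolar markers and above 0 for tumour markers in both lungs, while C3 and C4b lie on opposite sides in the 2 mice.

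To describe arrangement at a coarser scale, spots were pooled into tiles of 6 array rows by 12 columns, with 75 and 70 tiles in the primary tumours and 52 and 87 in the lungs. Levels on the log2(CPM + 50) scale were correlated across the tiles of each section. Tiles of a section share a library and differ in depth, and neighbours are not independent, so the coefficients are given as descriptions. The summed C1q level correlated with macrophage markers at r = 0.66 in the primary tumour of Mouse_627 and at 0.20, 0.42 and 0.24 in the primary tumour of Mouse_628 and the lungs of Mouse_627 and Mouse_628. With tumour markers it was negative in the primary tumours (−0.39 and −0.30) and positive in the lungs (0.78 and 0.72). With neutrophil markers it was negative in all 4 sections (−0.45, −0.65, −0.80 and −0.72). With total UMIs per tile it was at 0.56 in the lung of Mouse_628 and between −0.13 and 0.09 in the other sections. In the lung of Mouse_628 total UMIs also moved with C3 (−0.53) and C4b (−0.48), against 0.05 and 0.03 in the lung of Mouse_627, and the part of depth in the correlations below was not tested.

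C3 and C4b correlated with each other in the lungs (r = 0.74 and 0.82) but hardly in the primary tumours (0.03 and 0.06). With airway markers C3 was at 0.28 and 0.68 and C4b at 0.44 and 0.77 in the lungs of Mouse_627 and Mouse_628. With adipocyte markers C3 was at 0.23 and 0.68 and C4b at 0.26 and 0.74. C4b followed fibroblast markers in the lungs (0.75 and 0.42) and not in the tumours (−0.07 and −0.17). C1ra followed C4b in the lungs (0.70 and 0.57). Between C3 and summed C1q, r was 0.39 in the lung of Mouse_627 and −0.58 in that of Mouse_628.

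**Figure D4:**
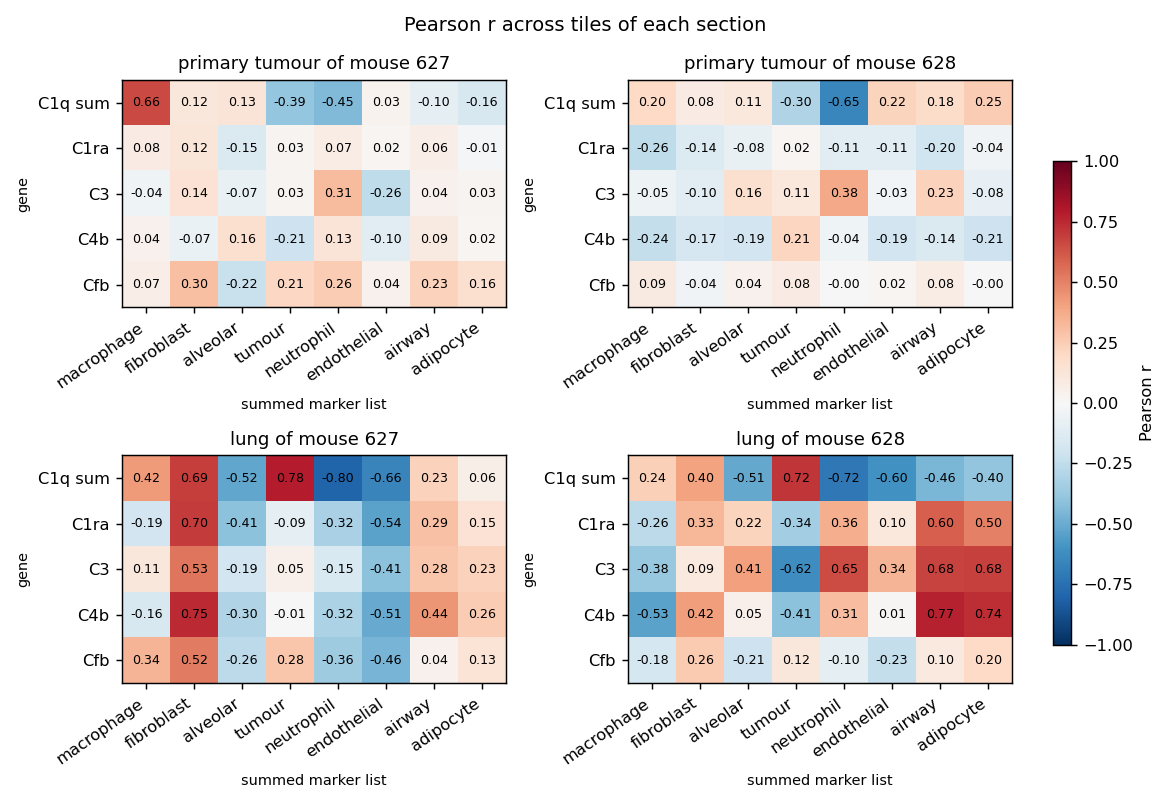
Pearson r across tiles of each section between complement genes (rows; C1q sum is C1qa, C1qb and C1qc together) and summed marker lists (columns). C1q is positive with tumour markers in the lungs (0.78 and 0.72) and negative in the primary tumours (−0.39 and −0.30).

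Summed C1q ranged over tiles from 181 to 3879 CPM in the primary tumour of Mouse_627, with a median of 1454 CPM, and from 0 to 981 CPM in that of Mouse_628. In the lungs it ranged from 54.1 to 1261 CPM (median 140 CPM) in Mouse_627 and from 155 to 1447 CPM (median 522 CPM) in Mouse_628. C3 ranged from 313 to 1342 CPM and from 87.8 to 1918 CPM in the same lungs, so no lung tile was without C3. Of the 20 lung tiles with the highest summed C1q, 19 were below the section's median C3 in Mouse_628 and 7 in Mouse_627.

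**Figure D5:**
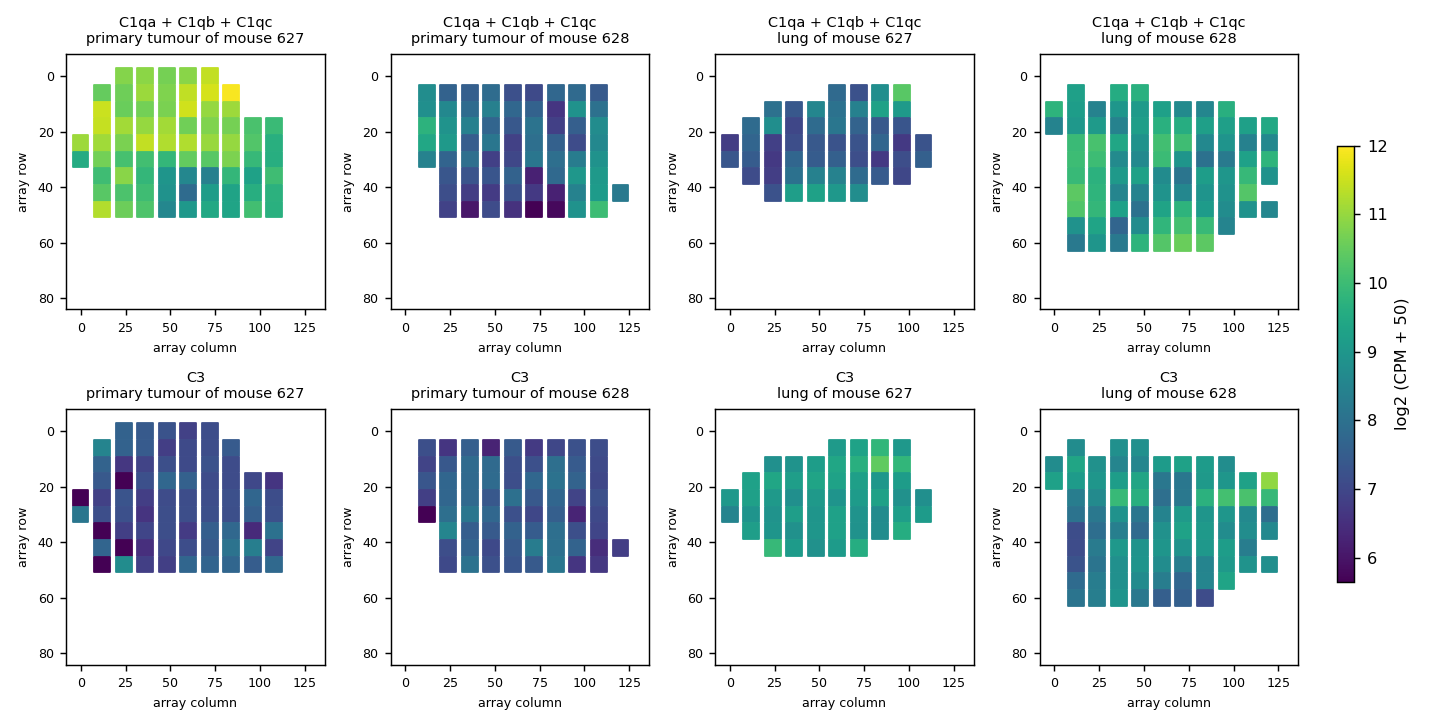
Tiles of each section at their place on the capture array, coloured by log2(CPM + 50) of the summed C1q genes (upper row) and of C3 (lower row). Summed C1q spans 54.1 to 1261 CPM in the lung of Mouse_627 and 155 to 1447 CPM in that of Mouse_628, and 19 of the 20 highest C1q tiles of the latter are below its median C3.

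Among 6289 genes at 20 CPM or more in every section, the genes whose tile pattern was most like that of summed C1q, by the mean r over the 4 sections, were Cd74 (0.68), the invariant chain of MHC class II, Gatm (0.64), Apoe (0.64), a lipoprotein gene also expressed by macrophages, Top2a and Hist1h2bb (both 0.58). Cd74 was at 0.85 and 0.73 in the primary tumours. Top2a, a proliferation gene, was at 0.39 and 0.35 in the tumours and 0.69 and 0.87 in the lungs. For C3 they were Cst3 (0.46), Fos (0.44), C4b (0.41), Nbl1 and Mgst1. For C4b they were C3 (0.41), Gsn, Mgp, Tmem176a and Galnt15. For Cfb they were C3 (0.39), Col6a3, Bst2, Slc25a4 and Col3a1, and for C1ra they were Csrp1 (0.36), Rfk, C4b, Ndufb10 and Mgp. The values for C1ra and Cfb were low, and tiles without a UMI numbered 21 and 30 for C1ra and 19 and 22 for Cfb in the primary tumours.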

How the data were processed

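Spatial libraries (10x Visium, formalin-fixed tissue, mouse probe set) of 2 primary tumours and 2 lungs from the same 2 mice were analysed. The authors' deposited values were raw UMI counts per gene and spot, made with Space Ranger 2.0.0 on mm10 per the labels, without pooling or normalization. Each spot with more than 200 genes was kept. Counts were summed per section, or per class of spots within a section (the spots in the upper and the lower of 3 equal parts by their share of UMIs in a marker list), and tested with edgeR 4.0.16 in R 4.3.3 (filterByExpr, TMM, quasi-likelihood test, Benjamini-Hochberg adjustment over all genes tested, threshold 0.05). Class fits had section as a block, and the difference between tissues was an interaction term. SEs were derived from the fitted coefficient and its F statistic, and 95% intervals from the t distribution with the fit's degrees of freedom. CPM is the UMIs of a gene divided by all UMIs of the section or class and scaled to 1000000. Probe counts are not comparable between genes. Intervals on CPM are exact Poisson limits that cover counting error only. Olfactory and vomeronasal receptor genes served as background. The alternatives were DESeq2 1.42.0, no filter, no TMM, all spots, spots of at least 1000 UMIs, thinning to 1000 UMIs, classes at the percentiles 25 and 75, neighbour shares, leaving out sections, and changes of the blocks. In the class fits, thinning was applied to the marker UMIs that set the classes, and the counts tested were not thinned. A section whose class limits were equal was left out. Spots with at least 1000 UMIs in the class fits, the crossed pairing and the fits without 1 section between tissues were chosen after seeing the data. Scripts were tested on simulated data.

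The sections pair by animal, as the labels state. The deviations of a mouse's 2 sections from their tissue means correlated at −0.29 across 15267 genes. The edgeR p-values rest on at most 4 sections of 2 animals, with the spread of each gene estimated partly from other genes. In the macrophage and fibroblast class fits most of that estimate came from the other genes. The named genes were the 7 members, up to 6 other complement genes called per comparison with the largest change, and the 5 genes most like each pattern across tiles. The members and lists were chosen with earlier results of these data known. C1s1 was not analysed here, and 1 other complement gene is not reported here. Of the barcodes, which mark array positions and not cells, 1342 occurred in all 4 sections. Gene positions came from GENCODE on GRCm38.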

Additional observations from a re-analysis of the deposited data

Results flagged for a closer look

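The C1q genes differed between tissues in how far macrophage-rich spots exceeded macrophage-poor spots. The lung minus tumour values on the log2 scale were −1.07 for C1qa, −0.96 for C1qb and −0.93 for C1qc, each past the edgeR test of the difference. In the same test Cd93, a receptor gene once described as binding C1q, was at −0.71. C1qa ratios were between 2 and 3 times in the primary tumours (2.59 and 2.88) and lower in the lungs (1.54 and 1.24). The summed macrophage markers went from 208 to 1501 CPM and from 0 to 827 CPM between poor and rich spots of the tumours, and from 332 to 1050 CPM and from 372 to 1085 CPM in the lungs, and their part in the result was not tested.

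For fibroblast-rich against fibroblast-poor spots, the edgeR test of the difference between tissues called 3 of 40 other complement genes, where 2.57% of 18689 genes tested were called. Cfd was at 5.83 (larger in lung), and Cd93 at −1.02 and Itgb2 at −1.02 (lower in lung). Cfd, encoding factor D, is abundant in adipocytes. In the primary tumours it was at 0.517 and 5.88 CPM, below the 95th percentile of the receptor genes (1.70 and 19.0 CPM), so its tumour side was background. There it went from 3.31 to 0.412 CPM and from 14.6 to 5.73 CPM while the summed receptor genes went from 3218 to 810 CPM and from 24307 to 9535 CPM, against 0.855 to 39.1 CPM and 2.73 to 55.3 CPM for Cfd in the lungs.

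The 106 spots of the primary tumour of Mouse_627 with at most 200 genes, which were left out of the comparisons except where all spots were used as an alternative, held 25 C1q UMIs of 19468, or 1284 CPM (exact Poisson 95% interval 831 to 1896). A count of 3, the limit that 0 allows, would be 154 CPM.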

How the results depend on the processing

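The 3 C1q calls in macrophage-rich spots held under DESeq2, no filter, no TMM, stricter class limits, neighbour shares, deeper spots and without each section. They were lost in 2 alternatives, classes set by marker UMIs thinned to 1000 UMIs per spot and no replicate block (0 members each). The C3 call between tissues was lost without TMM (0 members) and without the primary tumour of Mouse_628. Causes were not tested.

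The comparison of the tissues called 1139 genes (963 higher and 176 lower in lung). With mouse as a replicate block there were 1817, with DESeq2 2644 (1436 higher, 1208 lower), with no filter 2022, without TMM 328 and with spots of at least 1000 UMIs 681. Leaving out a section gave 883 to 6604 genes and 1 to 3 members. The deviations of same-animal sections correlated weakly and negatively across genes (r = −0.29), and crossed pairing gave 2565. For macrophage-rich spots (355 genes), there were 0 genes with no replicate block (9 at an unadjusted p under 0.05), 42 with DESeq2, 132 with neighbour shares and 32 after thinning, and 119 to 432 without a section. The 3 C1q genes were among them except with no replicate block and after thinning, each with 0 members. The macrophage difference between tissues (73 genes) gave 0 genes and 0 members with no replicate block (6 at an unadjusted p under 0.05), and 2 to 216 genes and 0 to 4 members without a section. For fibroblast-rich spots (545 genes), there were 0 genes and 0 members with no replicate block (36 at an unadjusted p under 0.05), 408 genes and 3 members with DESeq2 (C4b was not called), 825 genes without TMM, 16 genes and 0 members with neighbour shares, 82 genes and 0 members after thinning, and 0 to 299 genes and 0 to 4 members without a section. The fibroblast difference between tissues (481 genes, 201 higher and 280 lower) gave 0 genes with no replicate block (107 at an unadjusted p under 0.05), 1053 without TMM (996 higher, 57 lower, 1 member, C4b; the median over all genes went from 0.14 to 0.48) and 0 to 3659 without a section. For alveolar-rich spots (0 genes) there were 23 with DESeq2, 347 with no filter, 257 without TMM and 7 after thinning, with 0 members in each. Across single spots the mean r of summed C1q with macrophage markers was 0.15 instead of 0.38.

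Some signs turned. Between tissues without TMM, C1ra was at −0.22 and Cfb at −0.20. In macrophage-rich spots C1ra was at −0.0044 with DESeq2, −0.12 with neighbour shares and −0.069 after thinning, C4b at 0.037 with DESeq2, and Cfb at −0.030 without TMM and −0.13 after thinning. In fibroblast-rich spots C3 was at −0.0032 with DESeq2, and C1ra in the fibroblast difference at 0.20 without TMM. Leaving out a mouse or section between tissues gave −2.88 to 1.37 for C1qa, −3.04 to 1.33 for C1qb, −3.19 to 1.24 for C1qc, −0.58 to 1.15 for C1ra and −0.88 to 1.20 for Cfb. It gave, in macrophage-rich spots, −0.093 to 0.12 for C1ra, −0.13 to 0.20 for C4b and −0.16 to 0.24 for Cfb, and −0.58 to 0.73 for C1ra in the macrophage difference. It gave −0.043 to 0.12 for C3 in fibroblast-rich spots, and −0.15 to 1.03 for C3 and −0.19 to 0.55 for C4b in alveolar-rich spots. In the fibroblast difference it gave −0.40 to 0.34 for C1qa, −0.15 to 0.33 for C1qb, −0.39 to 0.34 for C1qc, −0.55 to 0.039 for C1ra, −0.013 to 0.44 for Cfb and −0.079 to 0.037 for C3. Of 731 recomputed values, 507 kept their direction and side of the threshold, or moved by less than their spread, 100 lost their call, 8 gained one, 82 moved further, some of them across 0, and 34 others changed sign.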
